A study of Mus musculus with 2 samples.

Results

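The 65 miRNAs described here mark red blood cells or tissues outside the blood, and they were chosen by name from the 1247 mouse miRNAs of the array. Every arm of the listed precursors found among the probe names counted. The erythroid class holds 12 miRNAs, the muscle and stroma class 19, the epithelium and liver class 18 and the brain class 16. Together they have 149 of the 3105 miRNA probes. Their signals were read as a check of the purity of a cell sort and of the detection limit of the arrays.

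The study measured miRNAs in sorted c-Kit+ Sca1+ Lineage- cells of adult mouse bone marrow, a rare fraction in which hematopoietic stem cells and multipotent progenitors lie. One array held RNA of the WT group, with the genotype CreERT, Tif1bw/w, and one held RNA of the KO group, with the genotype CreERT, Tif1bf/f, both on a C57/BL6 background per the labels. Both groups thus carry the CreERT transgene, a Cre recombinase that tamoxifen activates, and only the KO group carries loxP-flanked alleles of Tif1b (Trim28, KAP1), a corepressor that silences retroelements. The time and way of inducing recombination and any pooling of animals are not given in the sources used here, and the array has no probe for Tif1b. With 1 array per genotype there is no replicate and no test between genotypes, and each SD below is the spread over the spots of 1 probe on 1 array.

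miRNAs are short RNAs that guide Argonaute proteins to messenger RNAs through their seed, and many are restricted to a few cell types. miR-451a and miR-144 come from 1 transcript that GATA1 switches on in maturing red cells, and miR-451a is cut by Argonaute 2 and not by Dicer. miR-1, miR-133 and miR-206 are the miRNAs of striated muscle, miR-143 and miR-145 those of smooth muscle and stroma, the miR-200 family that of epithelium, miR-122 that of hepatocytes, and miR-9 and miR-124 those of neural cells. The Lineage- gate removes cells with surface markers of mature blood cells, the erythroid marker Ter119 usually among them. Some of the listed miRNAs are known from blood cells as well: miR-128 has been described in human blood progenitors, miR-132 and miR-212 in mouse hematopoietic stem cells, and miR-210 rises in hypoxic cells of many types.

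The mature sequences of the miRNAs that the results turn on are printed 5′ to 3′ with the seed, bases 2 to 8, in capitals. They are from RefSeq (GRCm38.p6), where 50 of the 65 miRNAs were matched, 48 by name and 2 by the complement of their probe. The genes of the erythroid pair, Mir144 and Mir451a, lie 99 bp apart on chromosome 11. Mature miR-144-3p is at chr11:78073047-78073066 and miR-451a at chr11:78073186-78073207, both on the plus strand and in no other annotated gene.
miR-451a: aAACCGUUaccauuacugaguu
miR-144-3p: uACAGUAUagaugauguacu
In the brain class, miR-128-3p is made from 2 loci, chr1:128202404-128202424 (plus strand, inside R3hdm1) and chr9:112118644-112118664 (minus strand, inside Arpp21). The array's miR-219-5p is RefSeq's miR-219a-5p, from chr17:34025052-34025072 and, inside Cercam, chr2:29845689-29845709, both on the minus strand. Probes cannot tell the loci of one mature sequence apart.
miR-128-3p: uCACAGUGaaccggucucuuu
miR-219-5p: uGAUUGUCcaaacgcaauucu
In the epithelial class, miR-200b-3p (chr4:156055685-156055706), miR-429-3p (chr4:156053916-156053937) and miR-200c-3p (chr6:124718324-124718346), all on the minus strand, share the seed AAUACUG.
miR-200b-3p: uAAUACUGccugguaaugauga
miR-429-3p: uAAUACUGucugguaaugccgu
miR-200c-3p: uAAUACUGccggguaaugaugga
In the muscle class, the 5p arms of miR-206 (chr1:20679017-20679039, plus strand, inside Lincmd1) and miR-1a-1 (chr2:180389057-180389079, plus strand) are shown because their probes are rich in A, a property that goes with higher signals of unmeasured probes below.
miR-206-5p: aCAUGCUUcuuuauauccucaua
miR-1a-1-5p: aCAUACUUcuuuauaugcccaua
The 50 matched miRNAs fall into 42 seed groups, and 7 of these groups hold more than 1 of them, 15 miRNAs in all. No miRNA that was measured on either array shared a seed with any of them.

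No erythroid, muscle, epithelial, liver or brain miRNA was measured on either array. A miRNA counted as measured when more than 50% of the spots of any of its probes were marked well above background by the scanner software, spots marked as outliers left out. By that rule 0 of the 65 were measured on the WT array, where 8.02% of all miRNAs were, and 0 of 65 on the KO array, where 6.26% were. One of the 65, miR-128-3p on the WT array, came close to the rule and passed the 2 looser readings described below. Of 22 blood miRNAs taken for comparison, among them miR-142-3p, which all blood lineages share, and miR-223-3p, a myeloid miRNA, 18 were measured on WT and 17 on KO. In that list miR-142-5p was measured on WT only, and miR-150-5p, miR-181a-5p, miR-17-5p and miR-146a-5p on neither array. Both the 65 and this list were chosen with earlier results of these data known, so the contrast between them can reflect that choice.

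The background was read from the negative-control spots, which carry probes with no target. Their processed signal was 6.62 ± 3.88 (SD, 983 spots) on the WT array and 6.99 ± 4.0 (973 spots) on the KO array, in linear intensity units. The 95th percentile of these spots, 13.3 on WT and 13.7 on KO, served as the negative-control limit. Probes of miRNAs lay below the negative controls in general, with a median probe mean of -1.82 on WT and -2.09 on KO. The dimmest measured probe of any miRNA had 17.7 on WT and 21.1 on KO, and the detection limit lay near these values. The KO array was dimmer: over the 113 probes measured on both arrays, its 75th percentile was 0.437 of that of the WT array. The negative controls were not dimmer on KO, and with 1 array per genotype the brightness of the array and the content of the sample cannot be told apart.

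Taking the brightest probe of each miRNA, the 65 lay from -7.14 to 15.98 on the WT array, with a median of -1.13. On the KO array they lay from -8.63 to 8.58, with a median of -1.68. The medians over all 1247 miRNAs were -0.584 and -0.784, and over all miRNAs that were not measured, the 65 included, they were -1.08 and -1.17. On WT 61 of the 65 and on KO 62 of the 65 lay below the mean of the negative-control spots. So did 1069 of all 1247 miRNAs on WT and 1098 on KO, so lying there was common on these arrays. Against the negative-control limit, 1 miRNA was above on WT (9.30% of all miRNAs were) and 0 on KO (7.94%). The software's own detection call named 1 on WT (9.62% of all miRNAs) and 0 on KO (7.94%). The 1 miRNA was miR-128-3p in both readings.

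**Figure D1:**
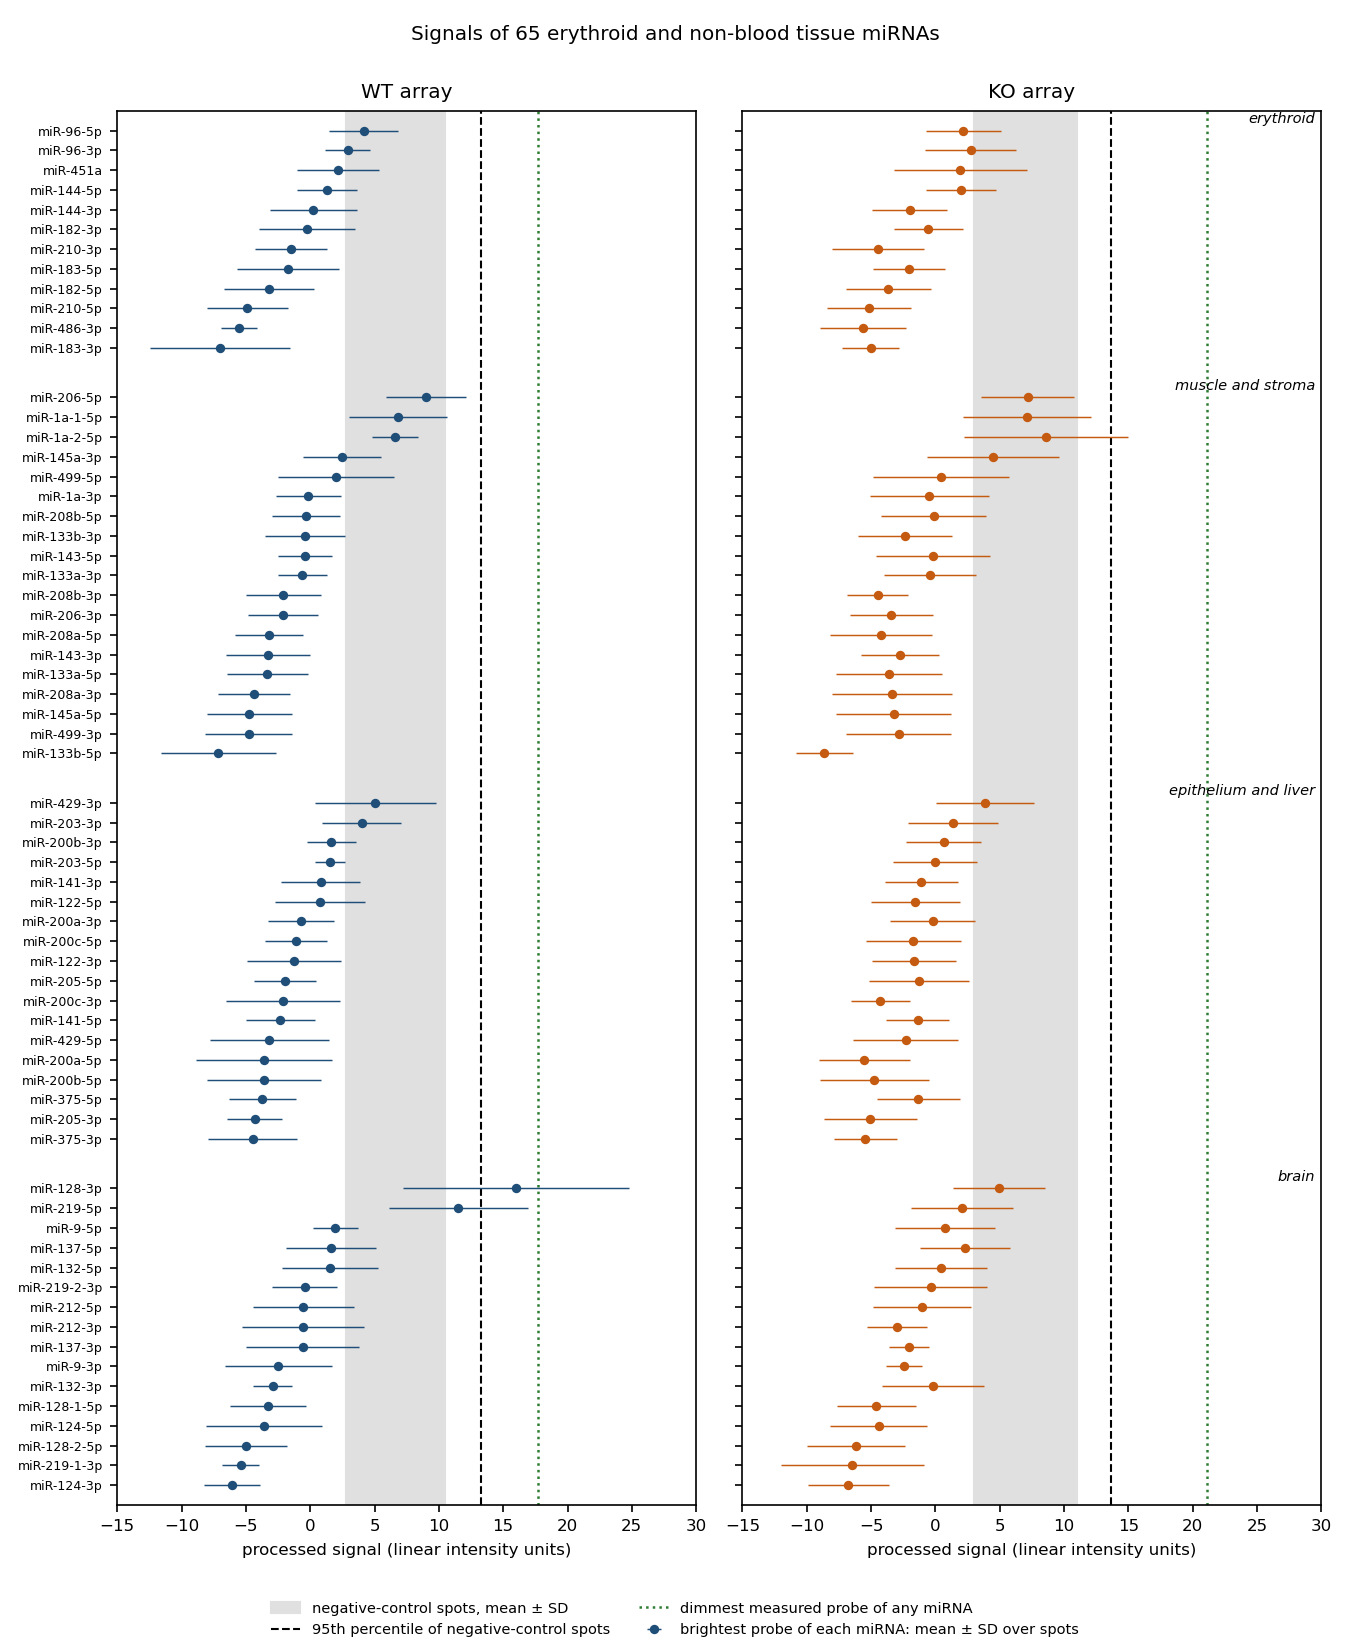
Processed signal in linear intensity units (x axis) of the brightest probe of each of the 65 miRNAs, grouped by class, on the WT array (left) and the KO array (right). Points are means and bars SDs over spots, the grey band is the mean ± SD of negative-control spots, the dashed line their 95th percentile and the dotted line the dimmest measured probe of any miRNA. All points lie left of the dashed line except miR-128-3p on WT, at 15.98.

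Spots were also counted, again with outlier spots left out. Of the 2459 spots of these miRNAs on WT, 9 were well above background, which is 0.366% (exact binomial 95% interval 0.167% to 0.694%). On KO 1 of 2490 was, or 0.0402% (0.00102% to 0.224%). These intervals cover counting error only. Among negative-control spots 1 of 983 was well above background on WT (0.102%, 0.00258% to 0.565%) and 0 of 973 on KO, which allows a share of up to 0.308%. The intervals of marker and control spots overlapped on both arrays. Spots of 1 probe are not independent, and all 9 on WT lay on 1 probe, so this overlap does not show equal shares. Of the spots of all miRNAs, 6.20% on WT and 4.64% on KO were well above background. In the blood list 77.1% of spots on WT and 69.6% on KO were.

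By class, the erythroid miRNAs had 0 of 453 spots well above background on WT and 0 of 463 on KO, which allows shares of up to 0.662% and 0.648%. The epithelium and liver class had 0 of 685 and 0 of 680, which allows up to 0.438% and 0.441%. These bounds treat spots as independent, which spots of 1 probe are not. The muscle and stroma class had 0 of 720 on WT and 1 of 729 on KO. All 9 such WT spots were in the brain class, 9 of 601, all of them on 1 probe of miR-128-3p, and the class had 0 of 618 on KO.

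The erythroid miRNAs lay at background on both arrays. miR-451a, which restrains a 14-3-3 adaptor protein in erythroblasts, had 2.14 ± 3.19 (19 spots) on WT, with spots from -4.31 over a median of 1.06 to 9.22. On KO it had 1.94 ± 5.14 (19 spots), from -5.16 over a median of 0.67 to 16.6, and that highest spot was the only one over the limit. The same probe was brighter on WT at 9 of 18 shared spot positions, so the arrays overlapped throughout. miR-144-3p, its cluster partner, had 0.234 ± 3.36 (18 spots) on WT and -2.01 ± 2.90 (19 spots) on KO. The other arm, miR-144-5p, had 1.32 ± 2.35 (17 spots) and 1.99 ± 2.73 (20 spots).
Of the miR-183 cluster, known for its role in sensory organs and also found in erythroid cells, only miR-96 gave the brightest probes of the class. miR-96-5p had 4.16 ± 2.70 (18 spots) on WT and 2.17 ± 2.92 (19 spots) on KO. Of the negative-control spots, 26.8% lay below its WT mean and 10.6% below its KO mean, so it stayed within the lower part of the background. miR-96-3p had 2.91 ± 1.75 (18 spots) and 2.75 ± 3.53 (19 spots). Its cluster neighbours miR-182 and miR-183, the hypoxia-induced miR-210 and miR-486-3p had brightest probe means from -7.03 to -0.25 on WT and from -5.61 to -0.55 on KO. The class lacks miR-486-5p, the arm for which erythroid cells are best known, which was not analysed here.

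In the muscle and stroma class the markers with the clearest tissue assignment were as dim. miR-1a-3p, which promotes muscle differentiation, had -0.157 ± 2.52 (18 spots) on WT and -0.469 ± 4.63 (20 spots) on KO. miR-133a-3p, which is made from the same transcripts and favours myoblast proliferation, had -0.637 ± 1.91 (18 spots) and -0.439 ± 3.56 (20 spots). Neither differed between the arrays by more than the spread over spots. miR-143-3p had -3.30 ± 3.27 (19 spots) and, by another probe, -2.75 ± 3.02 (20 spots). miR-145a-5p, its partner in smooth muscle and marrow stroma, had -4.73 ± 3.33 (19 spots) and -3.25 ± 4.46 (20 spots). At most 0.509% of negative-control spots lay below the means of this stromal pair, so neither gave signal above background. The cardiac miR-208a, miR-208b and miR-499, encoded inside the myosin genes Myh6, Myh7 and Myh7b, reached 2.01 on WT and 0.435 on KO, with miR-499-5p the brightest on both arrays.

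In this class the means that lay above that of the negative controls were those of 5p arms of miR-1a and miR-206, 2 on WT and 3 on KO. miR-206-5p had 9.0 ± 3.11 (12 spots) on WT, from 3.51 over a median of 9.09 to 14.1, and 11 of its 12 spots were positive and significant by the software's weaker flag. On KO the same probe had 5.60 ± 3.53 (12 spots), and another probe of this miRNA was the brightest at 7.19 ± 3.61 (13 spots). Outlier spots left out, no spot of miR-206-5p was well above background on either array. On WT 1 outlier spot of it, at 20.1, was. The mature 3p arm, miR-206-3p, had -2.11 on WT and -3.42 on KO. miR-1a-1-5p had 6.79 ± 3.81 (12 spots) on WT and 7.12 ± 4.96 (13 spots) on KO. miR-1a-2-5p had 6.57 ± 1.77 (9 spots) on WT, and on KO a different probe was the brightest, at 8.58 ± 6.35 (14 spots). That KO probe had spots from 0.76 over a median of 5.93 to 23.3. Outlier spots left out, it holds the only spot of the 65 miRNAs that was well above background on KO, 1 of its 14. Its mean on WT was 5.51 ± 2.69 (14 spots), and both means lay inside the range of the negative controls.

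In the epithelium and liver class, the miR-200 family, which keeps epithelial cells in their state by repressing Zeb1 and Zeb2, lay at background. miR-200b-3p had 1.64 ± 1.91 (18 spots) on WT and 0.629 ± 2.88 (19 spots) on KO. miR-200c-3p had -2.13 ± 4.42 (20 spots) and -4.28 ± 2.27 (20 spots). miR-429-3p, with the same seed, had 5.07 ± 4.67 (20 spots) on WT, from -5.19 over a median of 5.10 to 13.9, and 3.84 ± 3.78 (20 spots) on KO. The 3 sequences with the shared seed, printed above, thus lay on both sides of 0. Outlier spots left out, none had a spot well above background. miR-203-3p, a miRNA of skin, had 4.0 ± 3.06 (20 spots) on WT and -0.929 ± 2.49 (19 spots) on KO by one probe. By its other probe it had 0.823 ± 2.62 (19 spots) on WT and 1.35 ± 3.49 (20 spots) on KO, so its probes differed in opposite directions. miR-122-5p, the main miRNA of liver, had 0.735 ± 3.49 (19 spots) on WT and, by another probe, -1.57 ± 3.46 (19 spots) on KO. All 18 miRNAs of the class, miR-375 of pancreatic islets and miR-205 of stratified epithelium included, lay below the mean of the negative controls on both arrays, as did most miRNAs, with medians of -1.64 on WT and -1.48 on KO.

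In the brain class the neural miRNAs were likewise at background. miR-124-3p, the most abundant neuronal miRNA, had -6.07 ± 2.18 (17 spots) on WT and, by another probe, -6.76 ± 3.19 (20 spots) on KO, both below every negative-control spot. miR-9-5p, a miRNA of neural progenitors, had 1.95 ± 1.76 (16 spots) and 0.729 ± 3.89 (20 spots). miR-137-5p had 1.59 ± 3.5 (19 spots) and 2.31 ± 3.48 (20 spots). The arms of miR-132 and miR-212, which share a locus and are induced by neuronal activity, lay from -2.93 to 1.52 on WT and from -2.98 to 0.42 on KO. The class median was -0.593 on WT and -1.53 on KO. On WT 2 of the 16, miR-128-3p and miR-219-5p, lay above the mean of the negative controls, and on KO 0 did.

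miR-128-3p, a miRNA enriched in neurons that restrains their excitability, gave the highest probe signal of the 65 on the WT array. Its longer probe, of 20 bases, had 15.98 ± 8.80 (20 spots) there, from 2.33 over a median of 15.3 to 33.6. The mean lay above 99.4% of the negative-control spots, and 12 of the 20 spots exceeded the negative-control limit. Well above background were 9 of 20, or 45%, just short of the 50% that counts as measured. On the KO array the same probe had 4.93 ± 3.56 (20 spots), from -2.50 over a median of 5.25 to 10.65, above 33.0% of the negative-control spots and with 0 of 20 well above background. WT was the brighter array at 18 of 20 spot positions. This probe was looked at for its high WT signal, which favours that direction, and its spot positions are not replicates. The shorter probe, of 19 bases, did not share the WT signal, with 3.52 ± 4.64 (19 spots) and 0 well above background, and it had 0.304 ± 3.57 (17 spots) on KO. Both probes were lower on KO, but only 1 of them carried signal over the limit.

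The software's total gene signal for miR-128-3p was 4.52 on WT, and its call was detected. Of the 120 miRNAs it called detected there, 10 had a lower total, the lowest being 2.31 and the median 27.3. None of the 7 negative-control names was called detected, each at the floor of 0.1. miR-128-3p was thus at the lower end of what the software reported. It was among 20 miRNAs on WT that the software called and the rule on spots did not.

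No fold change between the genotypes is given for miR-128-3p, since it was measured on neither array. Its lower KO signal stands beside the ratio of 0.437 given above, and the part of that difference between the arrays in it was not tested. Multiplied by that ratio, its WT signal would be 6.99, below the dimmest measured KO probe at 21.1. The ratio comes from measured probes, and whether it holds for dim ones was not tested. Fewer cells with this miRNA and less of it per cell cannot be told apart in a bulk sample.

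The position of the spots moved with this result. Over all measured probes, spots in rows above 320 of the 384 had a median of 44.6% of their probe's mean on WT and 60.1% on KO, against 108% and 106% in rows 1 to 320. Negative controls were only slightly lower there, at 5.89 against 6.77 on WT and 6.24 against 7.15 on KO. The 15 spots of miR-128-3p in rows 1 to 320 had 19.1 ± 7.73 on WT, and 9 of them, 60%, were well above background. The 5 spots in rows above 320 had a mean of 6.56 and reached at most 9.58. With those rows left out, an alternative chosen after seeing the data, miR-128-3p was measured on WT, together with 8.34% of all miRNAs. On KO the 15 spots in rows 1 to 320 had 6.38 ± 2.63, with 0 well above background, and the other 5 had 0.571.

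miR-219-5p, a miRNA that drives the maturation of oligodendrocytes, was the other brain miRNA that stood out on WT, without reaching the limit. Its brightest probe had 11.5 ± 5.37 (19 spots), from 1.36 over a median of 11.4 to 19.4, above 90.2% of the negative-control spots. Of these spots 18 of 19 were positive and significant and 0 were well above background. On KO the probe had 2.04 ± 3.96 (20 spots), above 9.76% of the negative-control spots. WT was brighter at 16 of 19 positions, which are not replicates, and looking at this probe for its high WT signal favours that direction. A second probe had 4.91 ± 5.17 (20 spots) on WT and -0.105 ± 3.09 (20 spots) on KO, a difference in the same direction. No fold is given here either. In rows 1 to 320 the WT spots had 12.4 (15 spots) and in rows above 320 they had 8.05 (4 spots).

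**Figure D2:**
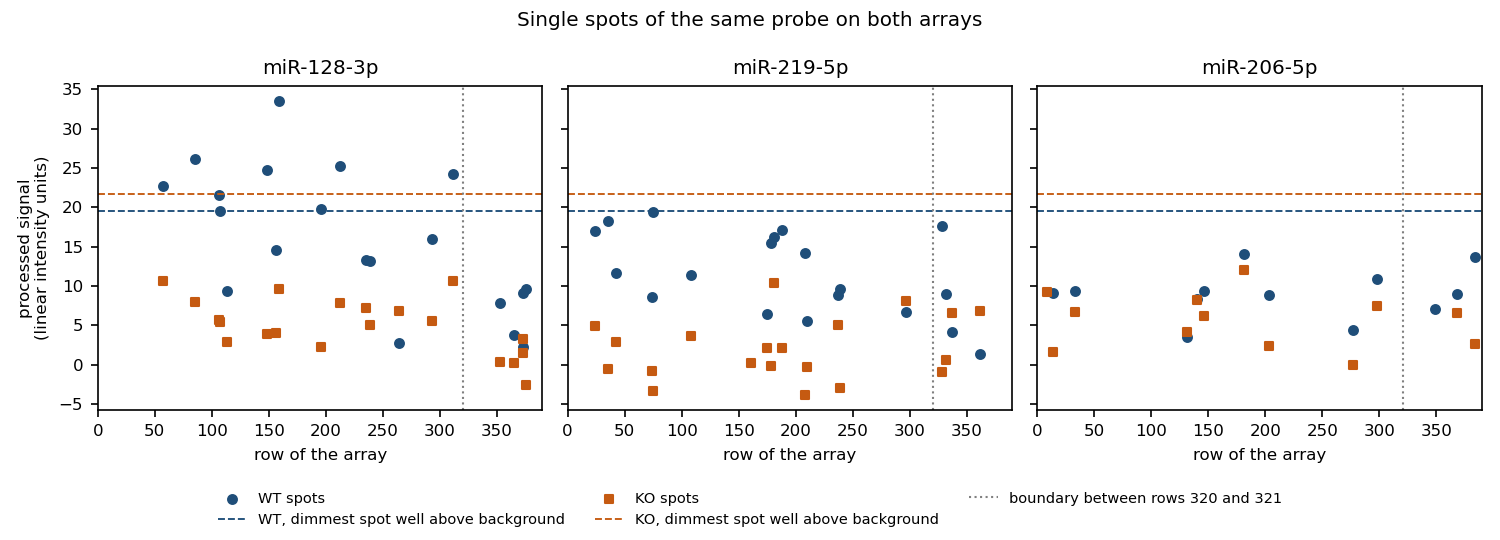
Processed signal in linear intensity units (y axis) of single spots against their row on the array (x axis) for miR-128-3p, miR-219-5p and miR-206-5p, the same probe on both arrays, outlier spots left out. Circles are WT and squares KO, dashed lines mark the dimmest spot of any miRNA that was well above background on each array (19.6 on WT and 21.7 on KO), and the dotted line divides rows 1 to 320 from the rows above. Of these probes only that of miR-128-3p has WT spots at or over the WT line, 9 of 20, and all 9 lie in rows 1 to 320.

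Over the 149 probes, the KO minus WT difference had a median of -0.634 intensity units, with quartiles of -1.45 and 0.530, and 97 of 149 probes were lower on KO. The spot SDs given above describe single spots and not means over spots, so they do not measure the error of these differences. The lowest differences were -11.1 for miR-128-3p, -9.48 and -5.02 for both probes of miR-219-5p and -4.93 for a probe of miR-203-3p. The highest was 3.07, for miR-1a-2-5p. Across the 149 probes the signals of both arrays correlated with Pearson's r of 0.884, as a description, since probes share arrays, labelling and base composition.

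The signals also went with the base composition of the probes. Across the 149 probes the signal correlated with the number of A bases in the probe with r of 0.811 on WT and 0.859 on KO, and with probe length with r of 0.729 and 0.745. Across the other probes of unmeasured miRNAs r with the number of A was 0.618 on WT (2751 probes) and 0.578 on KO (2795 probes). Probes with many A bases were thus brighter in marker and other unmeasured miRNAs alike. Counts of brighter probes below describe dim signals and not the abundance of different miRNAs. The WT probe of miR-206-5p has 10 A bases, and other unmeasured probes with as many had a median of 4.46 on WT, with 1 of 44 brighter than it. The brightest probes of miR-1a-1-5p and miR-1a-2-5p have 9, where the median was 3.68 on WT and 4 of 87 were brighter than either. For miR-451a, with 7, the median was 0.689 on WT, and 40 of 179 such probes were brighter. For miR-128-3p, with 6, the median of 331 such probes was -0.475 on WT and 2 were brighter. For miR-219-5p, with 7, 0 of 179 were brighter on WT. miR-128-3p, miR-219-5p, miR-206-5p and both miR-1a 5p arms thus lay near the top of WT probes of unmeasured miRNAs with as many A bases. miR-451a did not. Each was the brightest probe of its miRNA, set against single probes of others, and that choice favours a high rank. Leaving measured miRNAs out of the comparison favours it too. The other probe of miR-128-3p, also with 6 A bases, had only 3.52 on WT. On KO, among other unmeasured probes with as many A bases, 23 of 338 were brighter than miR-128-3p and 10 of 44 brighter than the KO probe of miR-206-5p. With as many as miR-219-5p, 44 were.

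**Figure D3:**
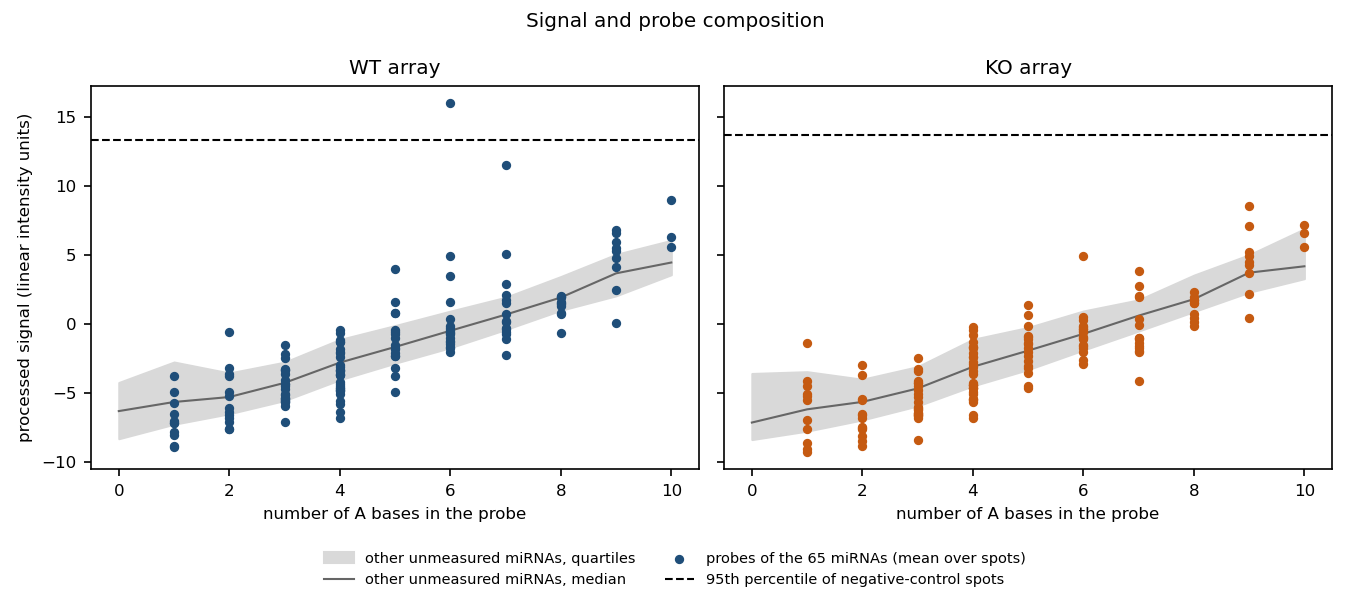
Processed signal in linear intensity units (y axis) of the 149 probes of the 65 miRNAs against the number of A bases in the probe (x axis), on WT (left) and KO (right), with the median (line) and quartiles (grey) of other probes of unmeasured miRNAs and the 95th percentile of negative-control spots (dashed). Signals rise with the number of A bases on both arrays, and 1 probe lies over the dashed line, that of miR-128-3p on WT at 15.98.

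Single bright spots occurred among those that the software had marked as outliers. Of the 2600 spots of the 65 miRNAs, 5.42% were outliers on WT and 4.23% on KO. Of these, 15 on WT and 8 on KO were well above background, each in a different miRNA. The brightest had 112 (miR-205-3p, WT) and 41.7 (miR-133b-3p, KO). No probe had more than 1. The probe signals and the counts of measured miRNAs were computed without outlier spots, whatever their number.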

How the data were processed

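Linear spot intensities and flags of 0 or 1 (well above background, positive and significant, outlier, detected) were deposited for each array. The submitters' processing notes name Agilent Feature Extraction 10.7.3 as their source. Per the file headers, an additive spatial trend was subtracted within each array and further background correction was off, so intensities can lie below 0. No normalization between arrays is recorded. Total RNA came from a Qiagen miRNeasy extraction, and 100 ng of it received the dye Cyanine 3, per the labels' protocols. Both arrays came from 1 slide and 1 scan. All 1268 entries of the deposited value table lay within 0.1% of the software's total gene signal intensity.

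From these, the mean processed signal, SD and flags per probe were computed without outlier spots, and a miRNA's signal is that of its brightest probe. Shares of spots carry exact Clopper-Pearson intervals, and a share of 0 is bounded by 3 counts of the total. That bound lies below the upper end of the exact interval, which is 0.811% for the erythroid spots on WT. Precision is limited by the number of arrays, 1 per genotype, and no p-value is given. The 65 miRNAs, the comparison list and the rule for named miRNAs were chosen with earlier results of these data known. Named are the defining miRNAs of each class and, on each array, the 3 of each class with the highest share of spots well above background, ties by signal. Alternatives covered the share of spots, flags, limits, spot and probe summaries, limma's normexp (offset 50), uncorrected mean signals, quantile normalization and the software's call. limma 3.58.1 ran in R 4.3.3, and all else in Python 3.11.15 with scipy 1.17.1, pandas 2.3.3 and numpy 2.4.6.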

Additional observations from a re-analysis of the deposited data

Results flagged for a closer look

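The total gene signal, a summary of the scanner software that the counts of measured miRNAs do not use, was 4.52 for miR-128-3p on the WT array. It calls for a closer look because the 7 negative-control names were all at the floor of 0.1 there. On the KO array the software called 0 of the 65 miRNAs detected.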

How the results depend on the processing

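Of 46 values recomputed under other settings, 28 stayed within 1.5 times the reported count or, for shares of spots, within the 95% interval. The count of marker miRNAs measured on WT, 0 as reported, was 1 when over 25% or over 10% of spots sufficed, with any spot well above background, by the software's call, in the value table above its floor, and with rows above 320 left out (chosen after seeing the data). It was miR-128-3p each time, where 8.34% to 10.5% of all miRNAs passed. With the positive and significant flag the count was 7 on WT and 5 on KO, where 20% and 18.4% of all miRNAs passed, and the share of spots was 12% on WT and 9.20% on KO, against 75.2% and 73.2% of negative-control spots. With any spot well above background the KO count was 1, miR-1a-2-5p, where 7.94% of all miRNAs passed. The count above the limit on WT, 1 as reported, was 0 with the mean plus 3 SD of the negative controls as the limit and 0 with the median over probes. Of all miRNAs, 8.34% and 7.78% passed in these settings. Under 2 limits chosen after seeing the data it was 3 (miR-128-3p, miR-206-5p and miR-219-5p), for the highest mean of a negative-control probe and of a dmr control probe. Of all miRNAs, 11.7% and 13.0% passed these limits on WT. The dmr limit gave 3 on KO, where 16.4% of all miRNAs passed. There miR-1a-1-5p and miR-1a-2-5p were in place of miR-128-3p and miR-219-5p. With outlier spots kept, the share of spots well above background was 0.923% on WT and 0.346% on KO, against 0.7% and 1.0% of negative-control spots. The cause was not tested. No paired analysis was possible because only 1 array was made per group.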
